A study of Homo sapiens with 6 samples.

Results

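The miR-146 and miR-155 miRNAs were followed in each small RNA library of MDA-MB-231 cells, an established human triple-negative breast cancer line. All rows of the expression table whose names begin with hsa-miR-146a, hsa-miR-146b or hsa-miR-155 were taken, which gave 3 of 413 miRNAs: hsa-miR-146a-5p, hsa-miR-146b-5p and hsa-miR-155-5p. No row named for the 3p arm of these hairpins was found. The WA group (n = 3) received 2 µM Withaferin A (WA), a plant steroidal lactone known to inhibit NF-kB signalling, for 24 h. The vehicle group (n = 3) was labelled as the untreated control, and the study's methods give 0.1% DMSO for the same time. All 6 libraries came from this single line, and the study describes the replicates as independent without saying whether each was a separate culture, so p-values measure the spread between these libraries, which may be partly technical.

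NF-kB is a family of transcription factors that IkB proteins hold in the cytoplasm until the IKK kinase complex marks the IkB proteins for degradation. Nuclear NF-kB induces the primary transcripts of miR-146a and miR-155. miR-146a and miR-146b are known to act on the mRNAs of TRAF6 and IRAK1, signalling proteins upstream of IKK, and so form a negative feedback loop. miR-155, in contrast, is a multifunctional miRNA of inflammation and of several tumours. No NF-kB activity was measured in these libraries.

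The mature sequences are shown because the seed sets which mRNAs a miRNA pairs with, and because the miR-146 pair must be told apart by a few bases. They are from RefSeq (GRCh38.p14), 5′ to 3′, with the seed (bases 2 to 8) in capitals.
hsa-miR-146a-5p: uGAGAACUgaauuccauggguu
hsa-miR-146b-5p: uGAGAACUgaauuccauaggcug
hsa-miR-155-5p: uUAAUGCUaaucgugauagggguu
The lengths are 22, 23 and 24 bases in that order. Counted from 1 at the 5′ end with miR-146a-5p first, miR-146b-5p differs by G18A and U21C and has 1 further base at its 3′ end, so 20 positions are the same. Of the 413 rows, 368 matched a RefSeq mature name, and among these GAGAACU was the seed of the 2 miR-146 rows and UAAUGCU of miR-155-5p alone. How the authors assigned reads that fit both miR-146 sequences is not given in the sources used here, so their separate levels carry this uncertainty.

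The 3 mature miRNAs lie at chr5:160485372-160485393, chr10:102436520-102436542 and chr21:25573983-25574006, all on the plus strand of GRCh38. In GENCODE release 44 the MIR146A hairpin (chr5:160485352-160485450) is within exon 2 of 2 of both transcripts of MIR3142HG, a long noncoding host gene. The MIR155 hairpin (chr21:25573980-25574044) is within the last exon of both transcripts of its noncoding host MIR155HG. The MIR146B hairpin (chr10:102436512-102436584) overlaps no other gene, and its nearest protein-coding gene is CUEDC2, 3928 bases away.

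Both host promoters were searched because NF-kB binds kappa B sites in DNA. The motif was the kappa B consensus, searched on both strands, and the window ran from 250 bases before to 50 bases after the RefSeq start of the gene. The MIR3142HG window held 1 match, on the plus strand, 120 bases before the start, shown here in capitals within chr5:160468106-160468165 (GRCh38.p14, plus strand).
MIR3142HG: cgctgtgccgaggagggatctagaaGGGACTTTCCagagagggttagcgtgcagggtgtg
No match was found in the MIR155HG window. Of 35116 RefSeq promoter windows of this length, 11.3% held a match, so one match is not unusual, and no binding was measured.

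Library totals were 710878 to 4778066 reads in the vehicle group and 156442 to 2232934 in the WA group. WA replicate 3 lay apart from the other WA libraries: over the 413 miRNAs its log2 values had a correlation across miRNAs of 0.630 with WA replicate 1 and 0.641 with WA replicate 2, which had 0.964 with each other, and of 0.772 to 0.797 with the vehicle libraries. WA replicates 1 and 2 had only 0.551 to 0.643 with the vehicle libraries, so they were the ones farthest from the rest. Which WA libraries are typical of the treatment, and whether the label or RNA of any of them is at fault, was not tested. Results are therefore given with and without WA replicate 3, and leaving it out does not mark it as the faulty one. Vehicle replicate 1 also lay apart, at 0.785 and 0.792 with the other vehicle libraries, which had 0.987 with each other. All 8 miRNAs chosen as typical of basal-like, mesenchymal breast lines were above 0 in all 6 libraries, with summed normalized values of 332200 to 626781 in the vehicle group and 387639 to 565371 in the WA group. The highest of them by mean were miR-21-5p and miR-100-5p. Within this list WA replicate 3 differed from the other WA libraries: miR-21-5p was at 27029 there against 277045 and 290979, and miR-221-3p was at 169488 against 19948 and 19091.

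miR-146a-5p was abundant in every library and was higher in all 3 WA libraries than in all 3 vehicle libraries. Its normalized value (reads divided by the size factor of the library) was 12584, 14221 and 7772 in vehicle replicates 1 to 3. It was 30030, 27574 and 36093 in WA replicates 1 to 3. The groups did not overlap, and the lowest WA value was 1.94 times the highest vehicle value. In bulk RNA, more cells that hold a miRNA and more of it in each cell cannot be told apart.

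The mean normalized value of miR-146a-5p was 11526 ± 3352 (SD, n = 3) with vehicle and 31232 ± 4385 (SD, n = 3) with WA, a ratio of 2.71. The log2 fold change on log2(normalized value + 1) was 1.48 with an SE of 0.64 and a 95% interval from -0.02 to 2.97. It did not pass the test across all miRNAs (limma, Benjamini-Hochberg adjusted p = 0.198, unadjusted p = 0.0529). The exact permutation test gave p = 0.1, two-sided, the smallest that 3 against 3 libraries allow. Without WA replicate 3 the log2 fold change was 1.37 and the adjusted p was 0.0829, and without vehicle replicate 1 these were 1.56 and 0.132.

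These values stand against a broad background. In limma, 18 of 327 tested miRNAs (5.5%) had an adjusted p under 0.05, of which 1 was higher and 17 were lower with WA. Neither miR-146 row was among them, and miR-155-5p was below the filter and so was not tested there. The median log2 fold change of the 327 was -0.91, and 51 of them had a larger log2 fold change than miR-146a-5p. Among the 173 miRNAs that reached a value of 10 in all 6 libraries the median was -0.10. Of all 413 miRNAs, 32 (7.75%) had groups that did not overlap and were higher with WA, among them miR-146a-5p and, by a margin of a few reads, miR-155-5p.

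In reads, miR-146a-5p had 9291, 49793 and 25428 with vehicle and 5180, 15433 and 48040 with WA. As a share of all miRNA reads this was 1.31%, 1.04% and 0.606% with vehicle. It was 3.31%, 2.73% and 2.15% with WA. The widest exact (Clopper-Pearson) 95% interval, that of WA replicate 1, ran from 3.22% to 3.40%, so the spread between libraries was larger than counting error. Such intervals cover counting error only, as no molecular identifiers are given for these reads. All read counts here, and the intervals built on them, take 1 step of a library's values (described below) as 1 read. This could not be settled.

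The mean share of miR-146a-5p was 0.985% ± 0.354 (SD, n = 3) with vehicle and 2.73% ± 0.580 (SD, n = 3) with WA, and the difference of 1.75 percentage points had an exact permutation p of 0.1. Ranked by value within its library, miR-146a-5p was number 20, 17 and 27 of 413 with vehicle and number 4, 8 and 13 with WA.

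**Figure D1:**
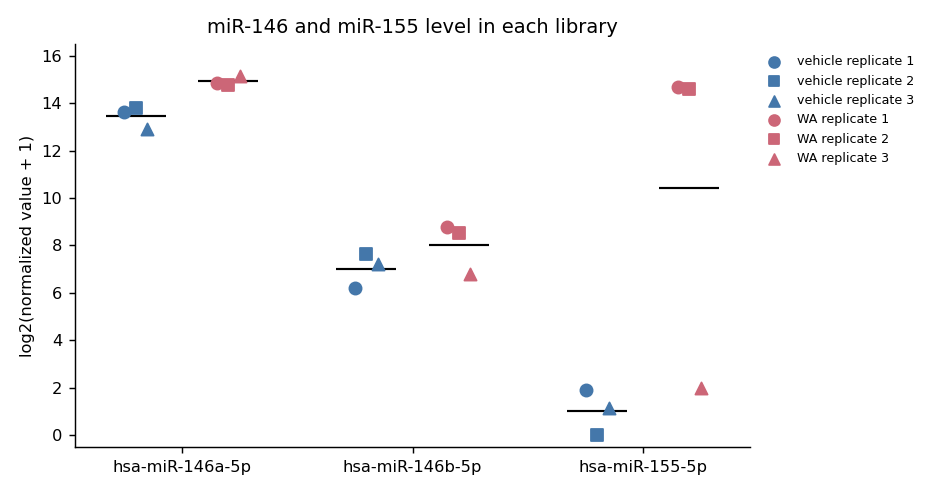
Normalized values of the 3 miRNAs as log2(normalized value + 1), 1 point per library, with the mean of each group as a line. The WA points of miR-146a-5p lie above all vehicle points, whereas WA replicate 3 (triangle) lies within the vehicle range for miR-146b-5p and at 3.01 normalized for miR-155-5p, next to the vehicle libraries.

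miR-146b-5p, which has the same seed, was much lower than miR-146a-5p in every library and was not separated between the groups. Its normalized value was 73.1, 195.6 and 149.5 in vehicle replicates 1 to 3. It was 434.8, 362.7 and 108.9 in WA replicates 1 to 3. WA replicates 1 and 2 were above all vehicle libraries and WA replicate 3 was between the lowest and the middle vehicle value.

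The mean normalized value of miR-146b-5p was 139 ± 61.9 (SD, n = 3) with vehicle and 302 ± 171 (SD, n = 3) with WA. The log2 fold change was 1.00 with an SE of 0.95 and a 95% interval from -1.23 to 3.23. It did not pass in limma (adjusted p = 0.510), and the exact permutation test gave p = 0.3. Without WA replicate 3 the log2 fold change was 1.62 with an SE of 0.62 and an adjusted p of 0.0863, and without vehicle replicate 1 it was 0.59 with an adjusted p of 0.630. The depth was modest, at 54, 685 and 489 reads with vehicle and 75, 203 and 145 with WA. In the full fit 76 of the 327 miRNAs had a larger log2 fold change.

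Within a library, the ratio of miR-146a-5p to miR-146b-5p does not depend on the scaling of that library. The ratio was 172, 72.7 and 52.0 in vehicle replicates 1 to 3 and 69.1, 76.0 and 331 in WA replicates 1 to 3. The highest ratio of all was that of WA replicate 3, and the other WA libraries lay within the vehicle range. The log2 ratio was higher by 0.48 with WA (6.42 ± 0.88 with vehicle and 6.90 ± 1.26 with WA, SD, n = 3), with an exact permutation p of 0.6. Without WA replicate 3 the difference was -0.25.

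miR-155-5p was at a few reads or none in 4 libraries and among the most abundant miRNAs in WA replicates 1 and 2. Its normalized value was 2.71, 0 and 1.22 in vehicle replicates 1 to 3. It was 26488, 24844 and 3.01 in WA replicates 1 to 3. WA replicates 1 and 2 were high, and WA replicate 3 was at the level of the vehicle libraries.

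In reads these values were 2, 0 and 4 with vehicle and 4569, 13905 and 4 with WA. WA replicate 3 was therefore low at a depth of 2232934 reads, against 156442 and 564882 reads in the WA libraries in which miR-155-5p was high. As a share of all miRNA reads, miR-155-5p held 2.92% of WA replicate 1 and 2.46% of WA replicate 2. In WA replicate 3 it held 0.000179%, with an exact 95% interval from 4.88e-05% to 0.000459%. The highest vehicle share was 0.000281% in replicate 1, and its interval from 3.41e-05% to 0.00102% overlaps that of WA replicate 3. A count of 0, as in vehicle replicate 2, allows up to 3 reads, a normalized value of 0.857 in that library.

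The ratio of normalized values of WA replicate 1 to vehicle replicate 1 was 9778, with an exact 95% counting interval from 2705 to 80766, since it rests on 2 reads in the vehicle library. For WA replicate 2 against the same library it was 9171, from 2538 to 75738. Against WA replicate 3 and its 4 reads, WA replicate 1 had a ratio of 8814, from 3440 to 32362. No fold is given for WA replicate 3 against vehicle. The normalized values of the groups did not overlap by 3.01 against 2.71, or 4 reads against 2, which is within counting error. As shares of reads the groups overlapped, with an exact permutation p of 0.2. By rank miR-155-5p was number 7 and 9 of 413 in WA replicates 1 and 2, number 333 in WA replicate 3 and number 388 to 411 in the vehicle libraries.

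miR-155-5p reached a normalized value of 10 in only 2 libraries, and 3 such libraries were needed to enter the fit, so it had no adjusted p among the 327 miRNAs. With no filter the log2 difference was 9.42 with an SE of 3.23, a 95% interval from 1.92 to 16.92 and a limma adjusted p of 0.0954. No other of the 413 miRNAs had a larger log2 fold change in that fit. The SD of the log2 values was 7.30 among WA libraries and 0.95 among vehicle libraries. Without WA replicate 3 and with no filter the log2 difference was 13.63 with an SE of 0.74 and a limma adjusted p of 0.000440, again the largest of the 413. In that fit 39 of 413 miRNAs (9.44%) were higher at an adjusted p under 0.05. Without WA replicate 1 and with no filter the log2 difference was 7.29 with a limma adjusted p of 0.297. Without WA replicate 2 these were 7.33 and 0.286. Without vehicle replicate 1 and with no filter the log2 difference was 9.86 with an adjusted p of 0.195. These fitted log2 differences depend on the pseudocount of 1, since the vehicle values are near 0.

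**Figure D2:**
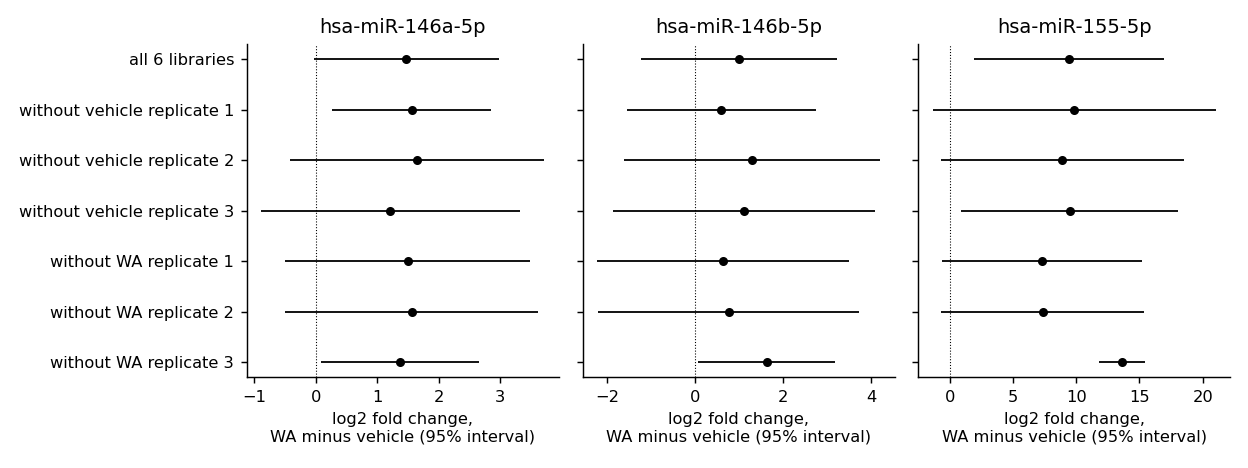
Log2 fold change of each miRNA (WA minus vehicle, points) with its limma 95% interval (bars), over all 6 libraries and with each library left out. miR-155-5p is from the fits with no filter. The dotted line is at 0, and the narrowest interval for miR-155-5p, around 13.63, is that without WA replicate 3.

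The 3 miRNAs did not move as a unit. The ratio of miR-155-5p to miR-146a-5p was 0.882 and 0.901 in WA replicates 1 and 2, that is, nearly as many reads of one as of the other, and 8.33e-05 in WA replicate 3. It was 0.000215, 0 and 0.000157 in the vehicle libraries. Over the 6 libraries the log2 values of miR-155-5p had a Pearson correlation of 0.829 with miR-146b-5p and of 0.591 with miR-146a-5p, and the miR-146 pair had 0.414 with each other. These are descriptions over 6 libraries that share the same depths and size factors.

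**Figure D3:**
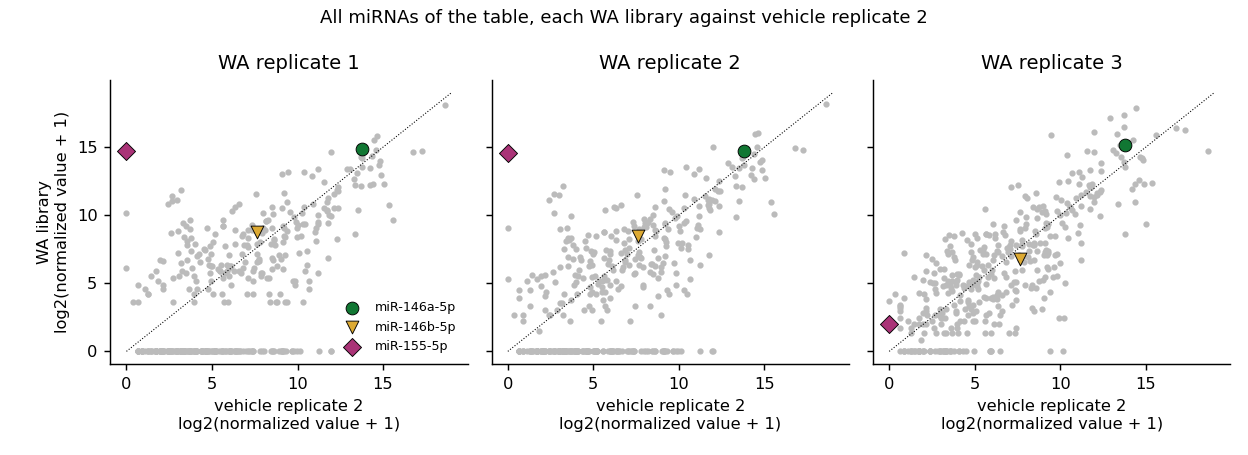
Each of the 413 miRNAs (grey) in 1 WA library (y axis) against vehicle replicate 2 (x axis), both as log2(normalized value + 1), with the dotted line at equal values. miR-155-5p is listed at 0 in vehicle replicate 2 and lies at the upper left for WA replicates 1 and 2 but at the lower left for WA replicate 3, where its normalized value was 3.01.

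By the same correlation, the 5 tested miRNAs most like miR-155-5p were miR-590-3p (0.995), miR-31-5p (0.991), miR-130b-3p (0.982), miR-129-5p (0.970) and miR-147b-5p (0.962). miR-31-5p, an epithelial miRNA that is low in many metastatic breast lines, had normalized values of 33.9, 5.43 and 8.86 with vehicle and 2777, 3005 and 23.3 with WA. miR-129-5p, which is abundant in brain, had 62.3, 6.85 and 13.4 with vehicle and 2180, 2905 and 63.9 with WA. All 5 were high in WA replicates 1 and 2 and far lower in WA replicate 3, where the highest of them, miR-130b-3p, was at 156. This shared pattern follows from their choice by correlation over the same libraries.

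The 5 most like miR-146b-5p were miR-186-5p (0.979), miR-374a-5p (0.971), miR-147b-3p (0.963), miR-340-3p (0.951) and miR-30b-5p (0.950). Each had its WA replicate 3 value within or below the range of its vehicle values: miR-186-5p, for instance, had 595, 2327 and 1548 with vehicle and 11021, 10684 and 1598 with WA. The 5 most like miR-146a-5p were miR-15a-5p (0.917), miR-181c-5p (0.914), miR-16-5p (0.911), miR-532-5p (0.908) and miR-149-5p (0.891). In contrast to the others, these were high in all 3 WA libraries: miR-149-5p had 249, 202 and 240 with vehicle and 516, 504 and 506 with WA. Here too the shared patterns follow from the choice by correlation and are no separate evidence.

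**Figure D4:**
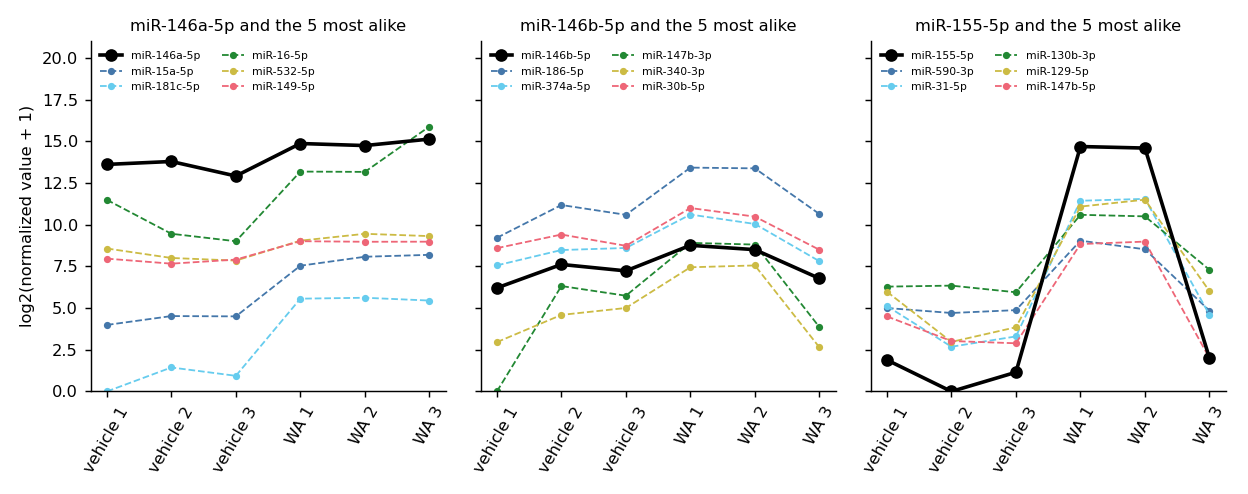
Level of each miRNA (black) and of the 5 tested miRNAs with the highest Pearson correlation to it over the 6 libraries (dashed), as log2(normalized value + 1) in each library. The group of miR-146a-5p stays high in WA replicate 3, where miR-149-5p was at 506, and the groups of miR-146b-5p and miR-155-5p fall there. The likeness within each group follows from the choice by correlation.

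miR-181c-5p needs a word on sequence, since it stands beside miR-146a-5p in that list. Its normalized values were 0, 1.71 and 0.917 with vehicle and 46.4, 48.2 and 42.8 with WA, far below those of miR-146a-5p. The qRT-PCR primer listed for the miR-181c-5p assay is shown because its letters are those of the more abundant miRNA.
qRT-PCR primer: gagaactgaattccatgggt
With T read as U, all 20 bases of this primer match bases 2 to 21 of miR-146a-5p, and 18 of 20 match miR-146b-5p. At its best ungapped placement 7 of 20 match miR-181c-5p, with a longest shared run of 4 bases. Among the 368 mature sequences of the table the primer's letters were found whole in 1, miR-146a-5p. The sequencing values do not rest on this primer, and which miRNA the assay amplified was not tested.

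In the order of group means, the nearest miRNAs could not be told apart from the 3 by their spread. With vehicle, miR-146a-5p was number 26, between miR-24-3p (11645 ± 7478, SD, n = 3) and miR-103a-3p (11095 ± 5296), and with WA it was number 9, between miR-29a-3p (43446 ± 42243) and miR-23a-3p (28124 ± 4619). miR-146b-5p was number 185 with vehicle, between miR-326 (141 ± 39.0) and miR-1249-3p (138 ± 155), and number 134 with WA, between miR-590-3p (308 ± 255) and miR-454-3p (301 ± 134). miR-155-5p was number 407 with vehicle, between miR-193a-3p and miR-181c-5p, all with means under 2 normalized. With WA it was number 20 (17111 ± 14839), between miR-103a-3p (17140 ± 9985) and miR-26a-5p (16577 ± 629), a place set by WA replicates 1 and 2.

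Other miRNAs that NF-kB is known to induce, or that rise in inflammation, gave no common direction. All 15 of that list were in the table and 14 were tested. None had an adjusted p under 0.05 in limma, against 5.5% of all tested, and none an unadjusted p under 0.05, against 26.3%. There were 8 log2 fold changes above 0 and 6 below. Their median was 0.76, against -0.91 for all 327. The 4 most abundant were miR-21-5p, an anti-apoptotic miRNA, at a log2 fold change of -1.04 (SE 1.23), miR-221-3p at 0.94 (SE 1.15), miR-222-3p at -0.37 (SE 0.95) and miR-125b-5p at 1.38 (SE 1.13). In 2 of these 15 miRNAs vehicle and WA values were fully separated. Higher with WA, as 7.75% of all miRNAs were, was miR-34a-5p, a p53 target, which had 70.4, 17.99 and 24.5 with vehicle and 139, 123 and 412 with WA. Lower with WA, as 110 of all 413 (26.6%) were, was miR-212-3p, which was below the filter and had 33.9, 9.14 and 11.0 with vehicle and 0, 0 and 7.51 with WA. A 0 in WA replicate 1 allows a normalized value of up to 17.4, above the 9.14 and 11.0, so this separation holds for listed values only. The count of 110 also rests on listed values, with no such limit applied.

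Without WA replicate 3, 3 of the 14 tested miRNAs of that list passed in limma, where 32 of all 327 (9.79%) were called higher and 115 (35.2%) lower. miR-30b-5p was higher (log2 fold change 1.83, SE 0.49, adjusted p = 0.0277). miR-132-3p (-4.13, SE 0.68, adjusted p = 0.00490) and miR-224-5p (-11.28, SE 0.56, adjusted p = 0.000705) were lower. miR-224-5p was listed at 0 in WA replicates 1 and 2 and at 7064 in WA replicate 3, the reverse of the split of miR-155-5p.

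Of 20 miRNAs known to act on NF-kB pathway mRNAs, 17 were in the table and tested. None passed at an adjusted p under 0.05. Without adjustment 4 were under that threshold, against 86 of all 327 (26.3%). Log2 fold changes were above 0 for 7 and below 0 for 10, with a median of -0.69. The 4 most abundant were let-7a-5p at 1.58 (SE 0.91), miR-125b-5p, already given, miR-125a-5p at -0.69 (SE 1.63) and miR-26a-5p at -0.26 (SE 0.72). miR-199a-3p is known to act on IKKβ mRNA, and miR-15a-5p and miR-16-5p on IKKα mRNA. Each of these had groups that did not overlap and was higher with WA, as were 25 of all 327 tested miRNAs. miR-199a-3p had 0, 8.28 and 3.97 with vehicle and 3670, 4499 and 66.1 with WA (adjusted p = 0.0527). miR-15a-5p had 14.9, 21.99 and 21.7 with vehicle and 186, 270 and 292 with WA (adjusted p = 0.0837).

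Without WA replicate 3, 4 of these 17 were higher and 7 lower at a limma adjusted p under 0.05, against 9.79% higher and 35.2% lower of all 327. The 4 were miR-199a-3p, miR-15a-5p, miR-16-5p and miR-26b-5p. The 7 were miR-10a-5p, miR-126-3p, miR-126-5p, let-7b-5p, miR-200a-3p, miR-200b-3p and miR-200c-3p. miR-200a-3p, miR-200b-3p and miR-200c-3p, which keep cells epithelial, were listed at 0 in WA replicates 1 and 2 and at 386, 642 and 165 in WA replicate 3.

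Marker miRNAs of other cell types also split WA replicates 1 and 2 from WA replicate 3. Some went with miR-155-5p and others in reverse. Of 7 fibroblast and stromal miRNAs 4 were in the table, led by miR-199a-3p and miR-199b-3p, and their summed normalized value was 16.3 to 62.5 with vehicle, 6255 and 8053 in WA replicates 1 and 2 and 133 in WA replicate 3. In WA replicates 1 to 3 miR-199a-3p had 3670, 4499 and 66.1 and miR-199b-3p had 1791, 2226 and 33.1. Both rows kept nearly the same proportion to each other in all 3 WA libraries. The sum may therefore count the same reads more than once, and whether these rows share reads was not tested. Of 11 epithelial or luminal miRNAs 6 were in the table, led by miR-31-5p and miR-200b-3p, with a sum of 209 to 1896 with vehicle and 3577, 4011 and 1265 with WA, and 4 of the 6, the miR-200 family with miR-429, were at 0 in WA replicates 1 and 2. Of 4 neural miRNAs 3 were in the table, led by miR-129-5p and miR-9-5p, with a sum of 283 to 373 with vehicle, 3855 and 4041 in WA replicates 1 and 2 and 180 in WA replicate 3.

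Endothelial miR-126-3p and miR-126-5p summed to 225 to 1786 with vehicle, 58.0 and 21.4 in WA replicates 1 and 2 and 5910 in WA replicate 3. Of 9 blood cell miRNAs, looked at because miR-155 is abundant in activated lymphocytes, only miR-486-5p and miR-342-3p were in the table, with a sum of 736 to 1478 with vehicle and 412, 552 and 3976 with WA. miR-486-5p was at 0 and 5.36 in WA replicates 1 and 2. Of the liver list miR-122-5p was at 14.3 or below in every library, and none of 3 muscle miRNAs was in the table. The part of these differences, and of WA replicate 3, in the levels of miR-155-5p and miR-146b-5p was not tested.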

How the data were processed

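Small RNA libraries (NEXTflex kit) of 3 vehicle-treated and 3 WA-treated samples were used. Per the labels and the study's methods, the authors trimmed reads with Trim Galore, aligned them with Bowtie to GRCh38.p10, and normalized miRNA reads with DESeq2. In the deposited table the signal of a miRNA in a library is its reads over a size factor, called the normalized value here. The authors' columns of fold changes and p-values for the same miRNAs were not used. Within a library, 100% of miRNAs had values that are whole multiples of a single step (within 2.44e-09 of a whole number of steps), and 1 step was taken as 1 read. Too few low values were present to settle this, so no count model was run.

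Groups were compared by limma 3.58.1 (R 4.3.3), two-sided and unpaired, with a variance trend and Benjamini-Hochberg adjustment. The response was log2(normalized value + 1) of the 327 miRNAs that reached a value of 10 in 3 or more libraries. Single values were compared by exact permutation. Adding 1 understates the fold change of low miRNAs. The fitting step was tested on simulated data that held no outlying library, so that test does not cover a library such as WA replicate 3. Python 3.11.15 was used for the rest.

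The miRNAs and lists were chosen with earlier results of these data known. Named were the rows themselves, the 5 most correlated tested miRNAs, their neighbours in group means, and of the lists those called and the most abundant. Other list members were named after their values were seen. Alternatives were other scalings, pseudocounts, filters, no variance trend, a replicate block, thinning, and each library left out. The unfiltered fits of miR-155-5p under these settings were added after the data were seen.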

Additional observations from a re-analysis of the deposited data

How the results depend on the processing

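The log2 fold change stayed above 0 and the adjusted p above 0.05 in all 17 alternatives for miR-146a-5p (0.64 to 1.65, limma adjusted p from 0.0829 to 0.582) and for miR-146b-5p (0.17 to 1.62, adjusted p from 0.0863 to 0.908). The lowest values came with upper quartile scaling, which moved the median of all tested miRNAs by -0.82. Relative to the median, miR-146a-5p was at 2.37 with that scaling and at 2.39 in the main comparison. A scaling shifts all miRNAs by nearly the same amount, so this distance could hardly change with it. It did change with the filter: where all 6 libraries had to reach a value of 10, the median was -0.10 and the distance 1.58. Trimmed mean of M values scaling moved the median by -0.10 and the total count without the 3 miRNAs by 0.11. For miR-155-5p, with no filter, the log2 difference was 7.29 to 13.63 over 16 alternatives, and the adjusted p from 0.000440 to 0.297. The difference of the log2 ratio of miR-146a-5p to miR-146b-5p was between -0.25 and 0.97 as each library was left out, and was -0.25 without WA replicate 3.

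The 18 miRNAs at an adjusted p under 0.05 became 7 with a pseudocount of 0.1, 7 with a pseudocount of 10, 53 with no filter, 0 where all 6 libraries had to reach a value of 10 (29 at an unadjusted p under 0.05) and 0 after thinning (79). With each library left out the count ran from 0 to 147: it was 147 without WA replicate 3, 21 without vehicle replicate 1 and 0 without any other library (46 to 52 at an unadjusted p under 0.05). The cause was not tested. Of the NF-kB-induced list 0 to 3 were called with each library left out, 3 without WA replicate 3 and 1 without vehicle replicate 1. Of the NF-kB-pathway-targeting list 0 to 11 were called with each library left out, 11 without WA replicate 3. That list had 2 called with total count scaling, 1 with upper quartile scaling, 1 with the total count without the 3 miRNAs, 2 with no filter and 1 with no variance trend.

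No pairing by replicate number was seen: the deviations of same-numbered libraries from their group means had correlations of -0.069, 0.057 and -0.087, and not every library correlated best with its own number. Deviations from means of 3 libraries cannot exclude such pairing. With a replicate block 24 miRNAs were called, 1 of the NF-kB-induced list and 3 of the NF-kB-pathway-targeting list, and the adjusted p was 0.446 for miR-146a-5p, 0.650 for miR-146b-5p and, with no filter, 0.0273 for miR-155-5p.

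Tests of read counts were planned but not run, since the step could not be fixed as 1 read from so few low values. miR-146b-5p had 54 reads in vehicle replicate 1 and 75 in WA replicate 1, which limits its precision there. For miR-155-5p, the 0 to 4 reads of the 3 vehicle libraries and WA replicate 3 are too few to order these libraries.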

Other observations

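In RefSeq, 3 human mature miRNAs share the miR-146 seed GAGAACU. Beside miR-146a-5p and miR-146b-5p this is miR-7153-5p, for which no row was found in the table.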
